A study of Mus musculus with 12 samples.

Results

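Antigen presentation by class I molecules of the major histocompatibility complex (MHC) was followed at the level of its transcripts in cultured fibroblasts of the mouse colon. The genes were chosen by symbol and numbered 10 of the 23106 in the deposited gene table. They are the heavy chains H2-K1 and H2-D1, the light chain B2m, the peptide transporter subunits Tap1 and Tap2, the bridging protein Tapbp, the inducible proteasome subunits Psmb8, Psmb9 and Psmb10, and the transactivator Nlrc5. All 10 were in the table and all 10 passed the filter on low values, a mean of at least 10 normalised reads. The 12 libraries formed 3 groups of 4 replicates, named here by their labels: Prkcz-/- with a guide against Sox2 (sgSox2, "Sox2-guide"), Prkcz-/- with a guide named sgScr ("knockout-labelled"), and WT with sgScr ("WT-labelled"). All cells were of colon origin from C57BL/6 mice aged 12 weeks and received no treatment, and the Sox2-guide cells carry the Prkcz-/- genotype as well. Sox2 encodes a transcription factor of stem cells, and Prkcz the kinase PKC zeta. The comparisons address how Prkcz-/- cells differ from WT cells, and how targeting Sox2 alters the Prkcz-/- cells. The series calls the replicates biological. Nothing in the labels says that they were separate animals or cultures, or whether edited cells were pools or clones. The p-values therefore measure only the spread among libraries, which may be technical.

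Class I molecules display short peptides from a cell's own proteins to cytotoxic T cells. The proteasome cuts proteins into peptides, and under inflammatory signals the inducible subunits PSMB8, PSMB9 and PSMB10 replace the constitutive subunits PSMB5, PSMB6 and PSMB7 in a form called the immunoproteasome. Peptides are carried into the endoplasmic reticulum by the TAP1-TAP2 transporter, and tapasin, the product of Tapbp, holds the transporter next to heavy chains paired with beta-2-microglobulin, the product of B2m. Interferons raise most of these genes through STAT and IRF factors, and NLRC5 acts on class I promoters through a group of proximal elements called the SXY module. Fibroblasts, like most nucleated cells, express class I.

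Libraries held 2668455 to 5201368 reads (Sox2-guide), 3090282 to 4919557 reads (knockout-labelled) and 2769291 to 3341244 reads (WT-labelled). Values are normalised reads, scaled so that each library sums to 10000000, and since 3' tag sequencing marks the end of a transcript they were not divided by length. The targeted genes did not all follow the labels. Prkcz had 54 reads in the Sox2-guide libraries, 32 in the knockout-labelled libraries and 0 in the WT-labelled libraries, which goes against the labels, although tags outside a deleted stretch check nothing. Every direction below is therefore between libraries as labelled. Sox2 had 0 reads in the Sox2-guide, 1960 in the knockout-labelled and 2 in the WT-labelled libraries. Replicate 1 of the Sox2-guide cells stood apart: divided by its degrees of freedom, the chi-square between its reads and those of the other 3 libraries was 27.2 to 30.7, where pairs among those 3 gave 2.38 to 5.27. Its mitochondrial share was 4.29% of reads, and the 12 libraries spanned 4.29% to 11.6%. Of 10 fibroblast markers, Col1a1 averaged 11494, 57381 and 5829 normalised reads, Pdgfra 40.9, 1448 and 249, and Vim 21466, 14820 and 18846 in Sox2-guide, knockout-labelled and WT-labelled libraries. Others were highest in WT-labelled libraries: Dcn averaged 31.5, 55.3 and 1374, Thy1 0.481, 146 and 942, and Lum 0, 0.810 and 6.80 in the same order of groups. In bulk RNA, fewer expressing cells and less RNA per cell cannot be told apart.

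The class I genes lie in 3 places of the GRCm38 genome (GENCODE vM21 coordinates). Most are in the MHC on chromosome 17: Tapbp at chr17:33915899-33929292 (plus strand), H2-K1 at chr17:33996017-34000347 (minus), Psmb9 at chr17:34181987-34187764 (minus), Tap1 at chr17:34187553-34197225 (plus), Psmb8 at chr17:34197721-34201454 (plus), Tap2 at chr17:34203527-34216321 (plus) and H2-D1 at chr17:35262730-35267499 (plus). B2m is at chr2:122147686-122153083 (plus). Nlrc5 at chr8:94434356-94527272 (plus) and Psmb10 at chr8:105935735-105938444 (minus) share chromosome 8. All are annotated as protein coding. Tap1 and Psmb9 are transcribed away from each other and their annotated 5' ends overlap, with RefSeq start sites 226 bases apart. Values of H2-K1, H2-D1 and the other heavy chains are uncertain as far as reads could be split between near-identical copies. Those of Tapbp, Tap1, Psmb9, B2m and Nlrc5 are uncertain as far as the counting ignored strand or shared reads with an overlapping gene.

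The heavy chain and light chain promoters are shown because their proximal elements can be read in the sequence. These genes were high together in both Prkcz-/- groups, as were all 10 members, so this does not set them apart. RefSeq promoters (GRCm38.p6) were matched for 8 members, and Tap2 and Nlrc5 were not among them. The first lines give the 200 bases before the start site of H2-K1 (chr17:34000348-34000547, minus strand) and of B2m (chr2:122147487-122147686, plus strand), 5' to 3'. Capitals mark, in H2-K1, the kB palindrome GGGATTCCC, the interferon element TTTCACTTC, the TGACG letters of a cyclic AMP response element and the ATTGG letters of an inverted CCAAT box. In B2m they mark the interferon element GAAACTGAA and the same TGACG and ATTGG letters.
H2-K1: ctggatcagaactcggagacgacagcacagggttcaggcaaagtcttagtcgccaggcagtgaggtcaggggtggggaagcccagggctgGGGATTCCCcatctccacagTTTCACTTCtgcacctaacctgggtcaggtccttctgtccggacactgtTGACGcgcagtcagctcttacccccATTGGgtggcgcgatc
B2m: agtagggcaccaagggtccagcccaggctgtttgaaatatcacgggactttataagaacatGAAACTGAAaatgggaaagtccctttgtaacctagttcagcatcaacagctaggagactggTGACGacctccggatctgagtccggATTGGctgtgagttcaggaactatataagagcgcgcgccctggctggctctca

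The kB and interferon elements stood in the same arrangement in both heavy chain genes, at chr17:34000429-34000458 (minus strand) for H2-K1 and at chr17:35262923-35262952 (plus strand) for H2-D1, and 29 of the 30 bases were identical. This H2-D1 stretch and the next one shown lie before the RefSeq start site (chr17:35263094). Both are inside the GENCODE span of H2-D1, which begins at chr17:35262730, so the annotations differ.
H2-K1: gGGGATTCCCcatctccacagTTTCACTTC
H2-D1: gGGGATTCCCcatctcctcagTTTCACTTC

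In H2-K1 (chr17:34000359-34000388, minus), H2-D1 (chr17:35262993-35263022, plus) and B2m (chr2:122147609-122147638, plus), TGACG stood exactly 20 bases before ATTGG on the coding strand, a spacing looked for only after it had been seen.
H2-K1: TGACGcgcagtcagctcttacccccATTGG
H2-D1: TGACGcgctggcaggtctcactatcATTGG
B2m: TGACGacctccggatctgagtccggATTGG
The heavy chain stretches shared 23 of 30 bases with each other, and B2m shared 13 with H2-K1 and 12 with H2-D1.

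Across the 250 bases before the start site of all 32851 RefSeq promoters, searched on both strands, GGGATTCCC was found in 0.301% (99 promoters) and the spaced TGACG and ATTGG pair in 0.0913% (30 promoters). Motifs with open positions (N) were more common: GAANNGAAA (H2-K1 and H2-D1 among the members) stood in 6.31% of promoters, GAAANNGAA (B2m) in 7.13% and the STAT motif TTCNNNGAA (Psmb8) in 7.02%. TGACG was in 5 of the 8 matched members (Tap1 and Psmb9 share the same letters) and 17.8% of all promoters, and CCAAT in 6 of 8 and 33.8%. The Psmb10 window held none of these letters. TGACG and CCAAT are part of the spaced pair and the kB letters do not overlap the interferon element. A match describes letters and does not show that a factor binds.

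Every class I gene was higher in the knockout-labelled than in the WT-labelled libraries. All 10 were called at an adjusted p under 0.05 (limma on log2 values of all tested genes, Benjamini-Hochberg adjustment), all 10 higher, and no library of either group overlapped. Calls were common, since 67% of the 12676 tested genes were called, 37.6% higher and 29.4% lower, and 36.8% had groups that did not overlap with the knockout-labelled one higher. Of the 10, 8 were at least 4-fold higher, as were 8.99% of tested genes. The median log2 change was 2.32 over the members and 0.12 over all tested genes. Tap2, at 7.49 in WT-labelled libraries, passed the minimum of 10 through the Prkcz-/- groups, and with no filter on low values all 10 were also called.

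Of the heavy chains, which hold the peptide, H2-K1 had 6649, 6169.9, 5993 and 5847 normalised reads in knockout-labelled libraries, against 1143, 1148, 1137 and 1117 in WT-labelled libraries. The WT-labelled libraries were nearly alike and lay far below every knockout-labelled library, with a log2 change of 2.44 ± 0.11 (SE, limma adjusted p = 1.4e-11). H2-D1 had 3994, 3549, 3279.7 and 2773 in knockout-labelled and 834, 877, 994 and 946 in WT-labelled libraries, a log2 change of 1.89 ± 0.13 (limma adjusted p = 2.8e-09). B2m, the light chain that every class I heavy chain pairs with, had 42093, 40233, 35657 and 29677 in knockout-labelled and 7754, 7829, 8596 and 8545 in WT-labelled libraries. The lowest knockout-labelled library was still far above the highest WT-labelled library (log2 change 2.16 ± 0.11, limma adjusted p = 4.4e-11).

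Among genes of peptide transport, the difference was largest for Tap1. It had 1258, 1478, 1355 and 1482 normalised reads in knockout-labelled and 114, 68.6, 102 and 75.6 in WT-labelled libraries, so its mean was 15.5-fold higher (log2 change 3.97 ± 0.15, limma adjusted p = 1.2e-12). Its partner Tap2 was rare: 40.7, 26.2, 40.7 and 25.9 in knockout-labelled and 3.25, 14.4, 8.98 and 3.29 in WT-labelled libraries. The WT-labelled values rest on 9 reads in all. The groups did not overlap, and the log2 change was 2.21 ± 0.54 (limma adjusted p = 0.0017). Tapbp, which tethers the empty heavy chain to the transporter, had 2986, 3079, 2876 and 3449.5 in knockout-labelled and 679, 682, 739 and 703 in WT-labelled libraries, again without overlap (log2 change 2.14 ± 0.10, limma adjusted p = 2.1e-11).

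The 3 inducible proteasome subunits differed in size of change. Psmb8, the inducible chymotrypsin-like subunit, had 768, 831, 607 and 679.5 normalised reads in knockout-labelled and 45.5, 39.7, 32.9 and 42.7 in WT-labelled libraries. With a mean 17.9-fold higher it changed most of the 10 genes (log2 change 4.13 ± 0.20, limma adjusted p = 2.0e-11). Psmb9, the neighbour of Tap1, had 163, 152, 119 and 77.7 in knockout-labelled and 9.74, 18.1, 14.96 and 6.57 in WT-labelled libraries (log2 change 3.30 ± 0.34, limma adjusted p = 2.6e-07). Psmb10, the inducible trypsin-like subunit, differed least: 311, 379, 294 and 404 in knockout-labelled and 214, 224, 209.5 and 239.8 in WT-labelled libraries. Its groups stood apart by a small margin, with a mean 1.56-fold higher (log2 change 0.63 ± 0.16, limma adjusted p = 0.0021).

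Nlrc5, the transactivator of class I genes, had 252, 257, 257 and 294 normalised reads in knockout-labelled and 35.7, 43.3, 50.9 and 29.6 in WT-labelled libraries. Its log2 change was 2.73 ± 0.20 (limma adjusted p = 4.2e-09). These calls held for all 10 genes under every alternative in which they were tested, and over other scalings the members' log2 changes ran from 0.50 for Psmb10 to 4.14 for Psmb8. Scaling moved the median of all tested genes in this comparison to -0.05 under quantile and 0.01 under TMM scaling, against 0.12 as reported, and every member lay above each of these.

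**Figure D1:**
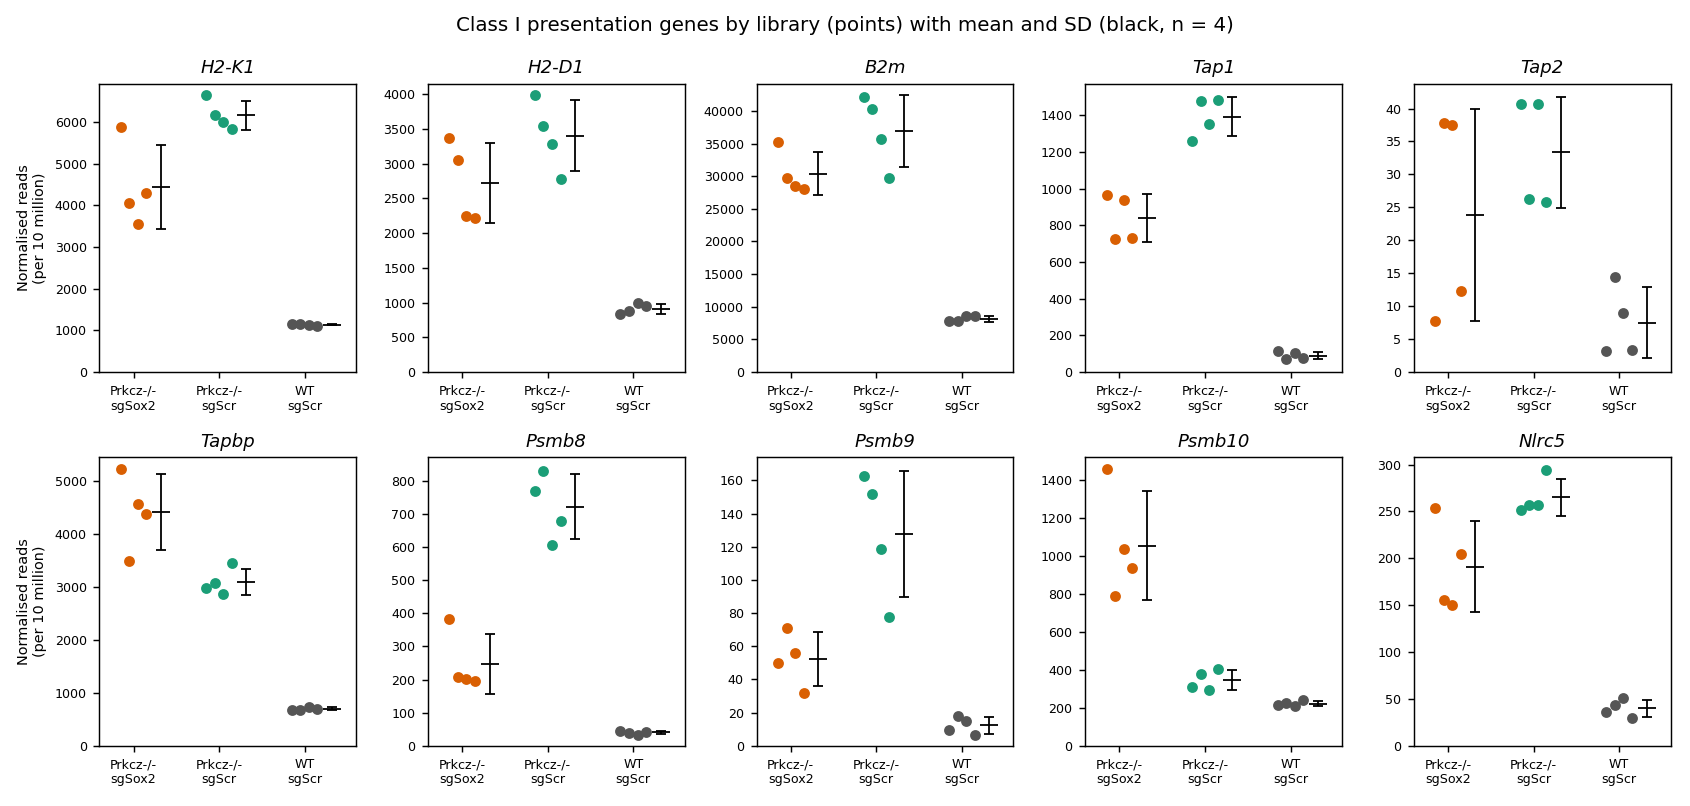
Normalised reads (each library scaled to 10000000, linear axis) of each class I gene in every library, by group, with the mean and SD in black (n = 4). In all 10 panels the WT-labelled libraries (WT sgScr) are low; Psmb10 and Tapbp are highest in Sox2-guide libraries, and the other 8 have their highest mean in knockout-labelled libraries (Prkcz-/- sgScr).

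The Sox2-guide libraries split the class I genes. Against knockout-labelled libraries, 2 of the 10 rose (Psmb10 and Tapbp), 7 fell and Tap2 was not called. Of all tested genes, 60.7% were called, 30.5% higher and 30.2% lower. Groups did not overlap for the 2 that rose and for 3 of those that fell (Psmb8, Psmb9 and Tap1), and the same was true of 26% of tested genes upward and 27.6% downward. The median log2 change was -0.50 over the members and -0.01 over all tested genes. Without Sox2-guide replicate 1 the counts were also 2 higher and 7 lower.

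The largest opposite changes were in subunits of the same particle. Psmb8 had 383, 207, 202 and 195 normalised reads in Sox2-guide libraries, against 768, 831, 607 and 679.5 in knockout-labelled libraries. Replicate 1 was the highest Sox2-guide library and still below every knockout-labelled library, and the log2 change was -1.59 ± 0.20 (limma adjusted p = 3.1e-06), or -1.83 without that replicate. Psmb10 had 1457, 788, 1038 and 936 in Sox2-guide and 311, 379, 294 and 404 in knockout-labelled libraries. Every Sox2-guide library was above every knockout-labelled library, with a mean 3.04-fold higher and a log2 change of 1.58 ± 0.16 (limma adjusted p = 2.5e-07), or 1.41 without replicate 1. Psmb9 followed Psmb8 in direction, with 49.99, 71.2, 56.2 and 32.1 in Sox2-guide and 163, 152, 119 and 77.7 in knockout-labelled libraries (log2 change -1.27 ± 0.34, limma adjusted p = 0.0042).

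Transport and bridging also parted. Tap1 fell to 967, 723, 937 and 734 normalised reads in Sox2-guide libraries, against 1258, 1478, 1355 and 1482 in knockout-labelled libraries (log2 change -0.74 ± 0.15, limma adjusted p = 5.0e-04). Tapbp rose, with 5226, 3489.5, 4576 and 4384 in Sox2-guide and 2986, 3079, 2876 and 3449.5 in knockout-labelled libraries (log2 change 0.50 ± 0.10, limma adjusted p = 5.2e-04). The margin was narrow, since the lowest Sox2-guide library was just above the highest knockout-labelled library. Tap2 had 7.69, 37.8, 37.5 and 12.3 in Sox2-guide and 40.7, 26.2, 40.7 and 25.9 in knockout-labelled libraries, which overlap, and its log2 change of -0.72 ± 0.54 was not called (limma adjusted p = 0.26). It rests on 36 and 50 reads in all, and its value ran from -1.03 to -0.31 with single libraries left out (-0.31 without Sox2-guide replicate 1) and was -0.15 under quantile scaling.

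Heavy and light chains, and Nlrc5, were lower by small amounts, and their groups overlapped. H2-K1 had 5877, 4048, 3549 and 4309.8 normalised reads in Sox2-guide and 6649, 6169.9, 5993 and 5847 in knockout-labelled libraries. Here replicate 1 of the Sox2-guide cells reached into the knockout-labelled range and the other 3 did not (log2 change -0.50 ± 0.11, limma adjusted p = 0.0013, and -0.64 without replicate 1). H2-D1 had 3370.3, 3049, 2241 and 2223 in Sox2-guide and 3994, 3549, 3279.7 and 2773 in knockout-labelled libraries (log2 change -0.33 ± 0.13, limma adjusted p = 0.042). Nlrc5 had 254, 156, 149.9 and 205 in Sox2-guide and 252, 257, 257 and 294 in knockout-labelled libraries (log2 change -0.50 ± 0.20, limma adjusted p = 0.041). For both, the Sox2-guide replicates scattered more than the knockout-labelled ones relative to their mean.

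B2m had 35229, 29790.1, 28439.7 and 28072 normalised reads in Sox2-guide and 42093, 40233, 35657 and 29677 in knockout-labelled libraries. Its log2 change of -0.27 ± 0.11 (limma adjusted p = 0.042) turned to 0.28 under quantile scaling (adjusted p = 0.038), so its direction in this comparison depends on the scaling. The calls of B2m, H2-D1 and Nlrc5 were lost when single libraries were left out: for B2m without any WT-labelled replicate, without knockout-labelled replicates 1, 2 or 3 or without Sox2-guide replicates 2, 3 or 4 (adjusted p = 0.053 to 0.14). For H2-D1 these were WT-labelled replicates 2 or 4, knockout-labelled replicates 1, 2 or 3 and Sox2-guide replicates 3 or 4 (adjusted p = 0.052 to 0.14), and for Nlrc5 any knockout-labelled replicate and Sox2-guide replicates 2 or 3 (adjusted p = 0.062 to 0.12). All 3 fell further without Sox2-guide replicate 1, at log2 changes of -0.35 for B2m, -0.44 for H2-D1 and -0.65 for Nlrc5.

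**Figure D2:**
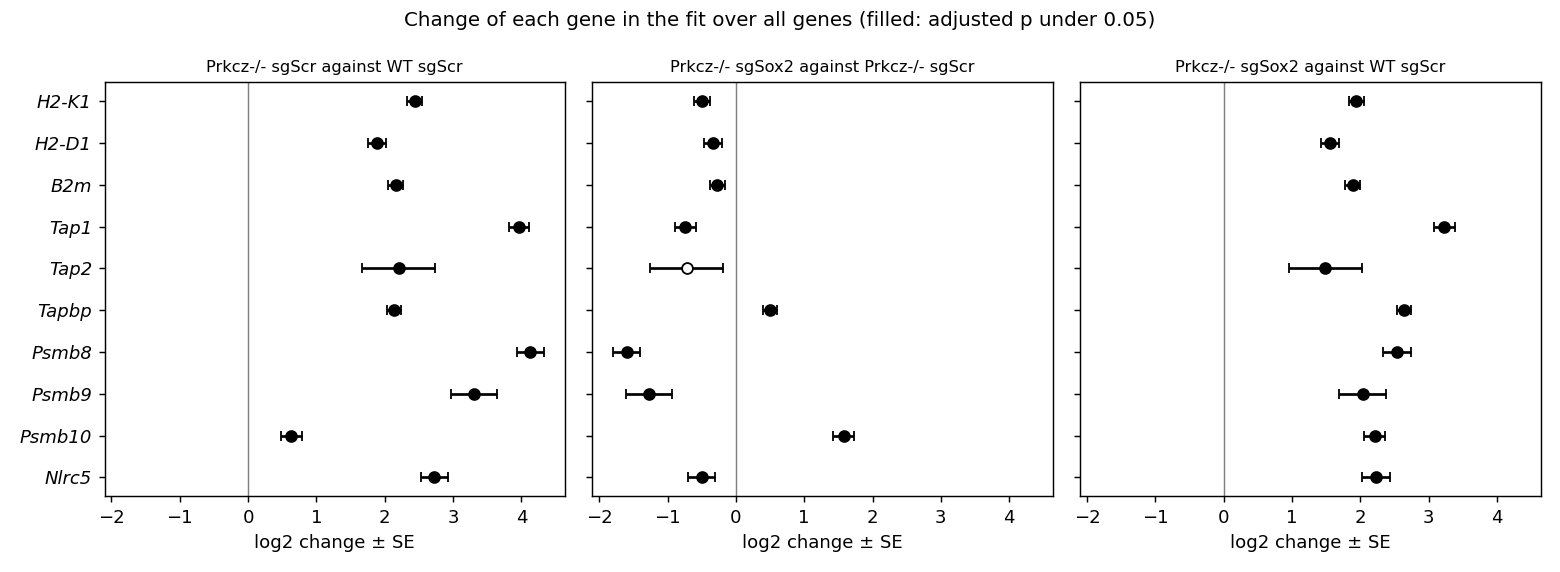
Log2 change with its standard error (limma fit over all tested genes) of each class I gene in the 3 comparisons; filled points have an adjusted p under 0.05. All points of Prkcz-/- sgScr and of Prkcz-/- sgSox2 against WT sgScr lie right of 0; between the Prkcz-/- groups, Psmb10 (1.58) and Tapbp (0.50) lie right and the other 8 left, with Tap2 open.

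Against WT-labelled libraries, which the knockout-labelled comparison shares, the Sox2-guide libraries were higher in all 10 class I genes. All were called higher, but Tap2 passed the minimum of 10 through the Prkcz-/- groups and its call did not hold without the filter. Of all tested genes 52% were called, 30.1% higher and 22% lower. Of the members, 9 had groups that did not overlap (27% of tested genes), and 6 were at least 4-fold higher (3.48% of tested genes). Their median log2 change was 2.12, beside 0.08 over all tested genes. Without Sox2-guide replicate 1 all 10 were called as well. Tap1 was the furthest apart, at 967, 723, 937 and 734 normalised reads in Sox2-guide and 114, 68.6, 102 and 75.6 in WT-labelled libraries (log2 change 3.23 ± 0.15, limma adjusted p = 4.3e-11). Tapbp came next with 2.64 ± 0.10, then Psmb8 with 2.54 ± 0.20, Nlrc5 with 2.23 ± 0.20 and Psmb10 with 2.21 ± 0.16. Psmb9 (2.03 ± 0.34), H2-K1 (1.94 ± 0.11), B2m (1.89 ± 0.11) and H2-D1 (1.55 ± 0.13) followed. Tap2 was the exception, since its Sox2-guide replicate 1 (7.69) lay within the WT-labelled range of 3.25 to 14.4. Its log2 change was 1.49 ± 0.54 (limma adjusted p = 0.028). The call was lost without WT-labelled replicates 1 or 4 or Sox2-guide replicates 2 or 3 (adjusted p = 0.084 to 0.094). It was lost too without a filter, in edgeR and with only the compared groups in the fit (adjusted p up to 0.069). The order of group means was thus knockout-labelled, Sox2-guide, WT-labelled in 8 genes and Sox2-guide, knockout-labelled, WT-labelled in Psmb10 and Tapbp. In the first order, knockout-labelled and Sox2-guide libraries overlapped for Tap2, H2-K1, H2-D1, B2m and Nlrc5. Between these groups Tap2 was not called, and the calls of B2m, H2-D1 and Nlrc5 were lost when single libraries were left out. For B2m the order of these groups also depended on the scaling.

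The proteasome pairs were compared as ratios of the inducible to the constitutive subunit within each library, where depth cancels. Psmb8 over Psmb5 was 0.668, 0.477, 0.400 and 0.497 in Sox2-guide libraries, 3.23, 2.50, 1.90 and 2.41 in knockout-labelled libraries and 0.136, 0.106, 0.0846 and 0.10 in WT-labelled libraries. No groups overlapped. The log2 ratio was 4.52 ± 0.21 (SE) higher in knockout-labelled than in WT-labelled libraries (exact two-sided permutation p = 0.0286, the smallest that 4 against 4 libraries allow). Its log2 difference was -2.29 ± 0.22 in Sox2-guide against knockout-labelled libraries and 2.23 ± 0.21 in Sox2-guide against WT-labelled libraries, both at the same exact permutation p. After adjustment over 15 tests (5 ratios, 3 comparisons) the smallest adjusted p was 0.0612, so no ratio passed 0.05. No ratio could have passed by its own separation, however complete, without many other tests at the smallest possible p. That p was reached by 7 of the 15 tests.

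Psmb10 over Psmb7 behaved differently. It was 0.898, 0.495, 1.00 and 0.865 in Sox2-guide libraries, 0.356, 0.528, 0.431 and 0.796 in knockout-labelled libraries and 0.183, 0.216, 0.187 and 0.201 in WT-labelled libraries. Both Prkcz-/- groups stood above the WT-labelled one, with log2 differences of 2.00 ± 0.23 (Sox2-guide) and 1.36 ± 0.25 (knockout-labelled), each at an exact permutation p of 0.0286. The Prkcz-/- groups overlapped each other (difference 0.64 ± 0.34, exact permutation p = 0.0857), and Psmb7 itself was higher in Sox2-guide (1333 ± 317) than in knockout-labelled libraries (695 ± 150.2). Psmb9 over Psmb6 averaged 0.0125 in Sox2-guide, 0.0364 in knockout-labelled and 0.00518 in WT-labelled libraries. Its log2 ratio was 2.74 ± 0.44 higher in knockout-labelled than in WT-labelled libraries (exact permutation p = 0.0286) and differed by -1.53 ± 0.41 in Sox2-guide against knockout-labelled libraries (exact permutation p = 0.0571).

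**Figure D3:**
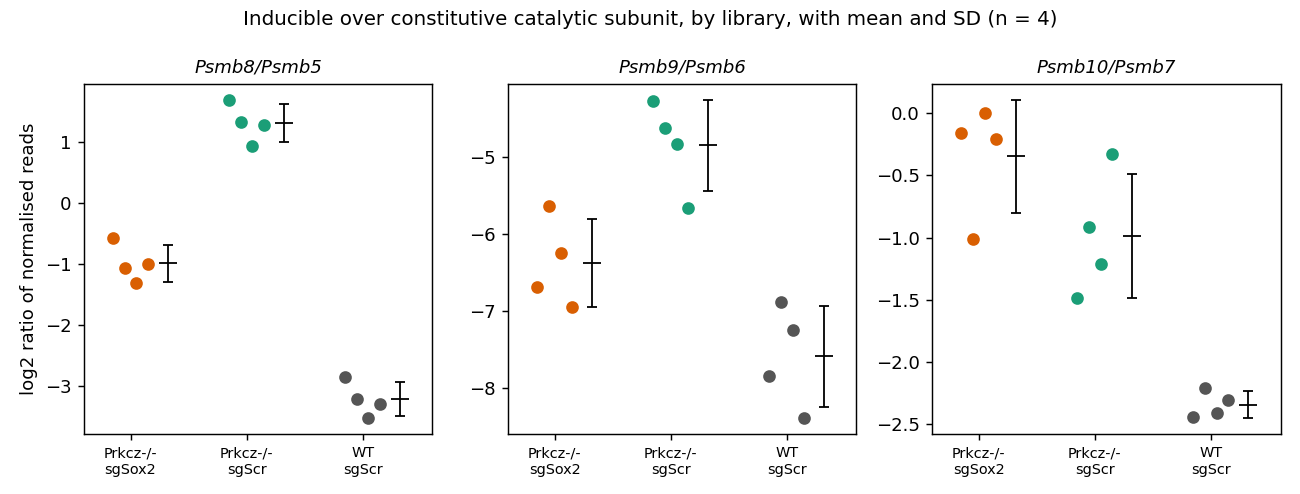
Log2 ratio of normalised reads of each inducible catalytic subunit to its constitutive counterpart, by library, with mean and SD in black (n = 4). Psmb8/Psmb5 separates the 3 groups without overlap, Psmb9/Psmb6 has the same order with overlaps, and Psmb10/Psmb7 is lowest in WT-labelled libraries with overlapping Prkcz-/- groups.

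Within the heavy chains, H2-K1 over H2-D1 was 1.65 ± 0.259 in Sox2-guide, 1.83 ± 0.194 in knockout-labelled and 1.25 ± 0.106 in WT-labelled libraries (SD, n = 4), and the last groups did not overlap (log2 difference 0.55 ± 0.10, exact permutation p = 0.0286). Tap1 over Psmb9, the divergent neighbours, was 17.3 ± 5.37, 12.0 ± 4.96 and 8.44 ± 3.83 in Sox2-guide, knockout-labelled and WT-labelled libraries. Those groups overlapped in every comparison (exact permutation p = 0.0857 to 0.2).

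Of 20 other class I heavy chain genes listed, 16 were in the table and 5 passed the filter. H2-Q6 and H2-Q7 passed it only through the Prkcz-/- groups, where they are high, so counts over the 5 and tests of H2-Q6 and H2-Q7 are not given. H2-Q7 had 734 ± 117 normalised reads in knockout-labelled and 3.22 ± 2.46 in WT-labelled libraries (SD, n = 4), the latter from 4 reads in all. H2-Q6 had 115 ± 31.6 in knockout-labelled libraries and 0 reads in WT-labelled libraries, at least 46.7-fold higher when the WT-labelled group is set at 3 reads over its libraries. H2-Q4 averaged 419 in knockout-labelled and 29.3 in WT-labelled libraries. In Sox2-guide libraries H2-Q7 (165 ± 47.7), H2-Q6 (14.0 ± 5.09) and H2-Q4 (225 ± 53.1) had lower means than in knockout-labelled libraries, and H2-Q4 was called lower. The call of H2-Q4 (limma adjusted p = 0.034) was lost without knockout-labelled replicates 1, 2 or 3 or Sox2-guide replicates 3 or 4. H2-Q6 was at least 5.71-fold higher in Sox2-guide than in WT-labelled libraries by the same bound. H2-M3 averaged 25.6 in Sox2-guide, 37.5 in knockout-labelled and 25.5 in WT-labelled libraries and was not called in any comparison. H2-T22 had 397 ± 161 normalised reads in Sox2-guide, 265 ± 109 in knockout-labelled and 139 ± 60.02 in WT-labelled libraries, and its call in knockout-labelled against WT-labelled libraries (limma adjusted p = 0.039) was lost in 9 of the alternatives.

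Among class I-like genes outside the MHC, 4 of 5 tested were higher in knockout-labelled than in WT-labelled libraries and 1 was lower, where 37.6% of all tested genes were higher and 29.4% lower. Fcgrt, the neonatal Fc receptor, which also pairs with beta-2-microglobulin, had 55.4 ± 11.2 normalised reads in Sox2-guide, 470 ± 15.3 in knockout-labelled and 82.6 ± 8.57 in WT-labelled libraries. It thus fell below WT-labelled libraries in Sox2-guide cells (log2 change -0.58, limma adjusted p = 0.0073), whereas all class I members were above them. Hfe, a regulator of iron uptake, had its highest mean in Sox2-guide cells: 93.9 ± 20.04 in Sox2-guide, 58.4 ± 12.5 in knockout-labelled and 20.4 ± 6.95 in WT-labelled libraries. Class II presentation genes were scarce: H2-Aa had 0 reads in all libraries, and of 12 listed only H2-DMa and H2-DMb1 passed the filter. Both were higher in knockout-labelled than in WT-labelled libraries and lower in Sox2-guide than in knockout-labelled libraries, with H2-DMa at 14.7, 73.6 and 19.4 in Sox2-guide, knockout-labelled and WT-labelled libraries.

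Most other proteasome genes were lower in knockout-labelled than in WT-labelled libraries, where Psmb8, Psmb9 and Psmb10 were higher. Of 15 other genes of the 20S core and its assembly, 1 was higher and 11 were lower in knockout-labelled than in WT-labelled libraries (median log2 change -0.61, beside 0.12 over all tested genes), and 13 were higher and none lower in Sox2-guide than in knockout-labelled libraries (median 0.64, beside -0.01), the direction of Psmb10 and not of Psmb8 or Psmb9. Over all tested genes, 37.6% were higher and 29.4% lower in the first comparison and 30.5% and 30.2% in the second. The 18 subunits of the 19S regulator showed 2 higher and 12 lower in the first comparison and 16 higher and none lower in the second (medians -0.47 and 0.55). The medians of both lists had the same sign under every scaling tried, and without Sox2-guide replicate 1 the second comparison had 12 of 15 and 15 of 18 higher. Psma7, a ring subunit, averaged 5556 in Sox2-guide, 2749 in knockout-labelled and 4205 in WT-labelled libraries. Of the constitutive catalytic subunits, Psmb5 averaged 476, 293 and 382 and Psmb6 averaged 4329, 3594 and 2419 in Sox2-guide, knockout-labelled and WT-labelled libraries. The call of Psmb6 in Sox2-guide against knockout-labelled libraries (log2 change 0.26, limma adjusted p = 0.041) was lost in 12 of the alternatives.

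The PA28 activator, which opens the proteasome and is itself induced by interferon gamma, had its highest means in Sox2-guide libraries. Psme1 had 2304 ± 281 normalised reads in Sox2-guide, 1221 ± 82.7 in knockout-labelled and 636 ± 50.2 in WT-labelled libraries. All differences were called (limma adjusted p = 4.7e-07 for Sox2-guide against knockout-labelled and 2.4e-07 for knockout-labelled against WT-labelled libraries). Psme2 had 449 ± 93.5 in Sox2-guide, 182 ± 31.3 in knockout-labelled and 183 ± 26.6 in WT-labelled libraries, so it was higher in Sox2-guide cells than in either other group (log2 changes 1.29 and 1.28) and was not called between the other groups (log2 change -0.01 ± 0.17). Of 16 partners of peptide trimming and loading, 7 were higher and 6 lower in knockout-labelled than in WT-labelled libraries, a split near the background, with a median log2 change of 0.02 that fell to -0.09 under TMM scaling. Erap1, which trims peptides in the endoplasmic reticulum, had 379 ± 53.3 in Sox2-guide, 187 ± 24.99 in knockout-labelled and 119 ± 26.9 in WT-labelled libraries. Tapbpl, a tapasin relative, averaged 170, 164 and 61.8, and the lectin chaperone Calr 6644, 7200 and 7560, in the same order of groups.

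**Figure D4:**
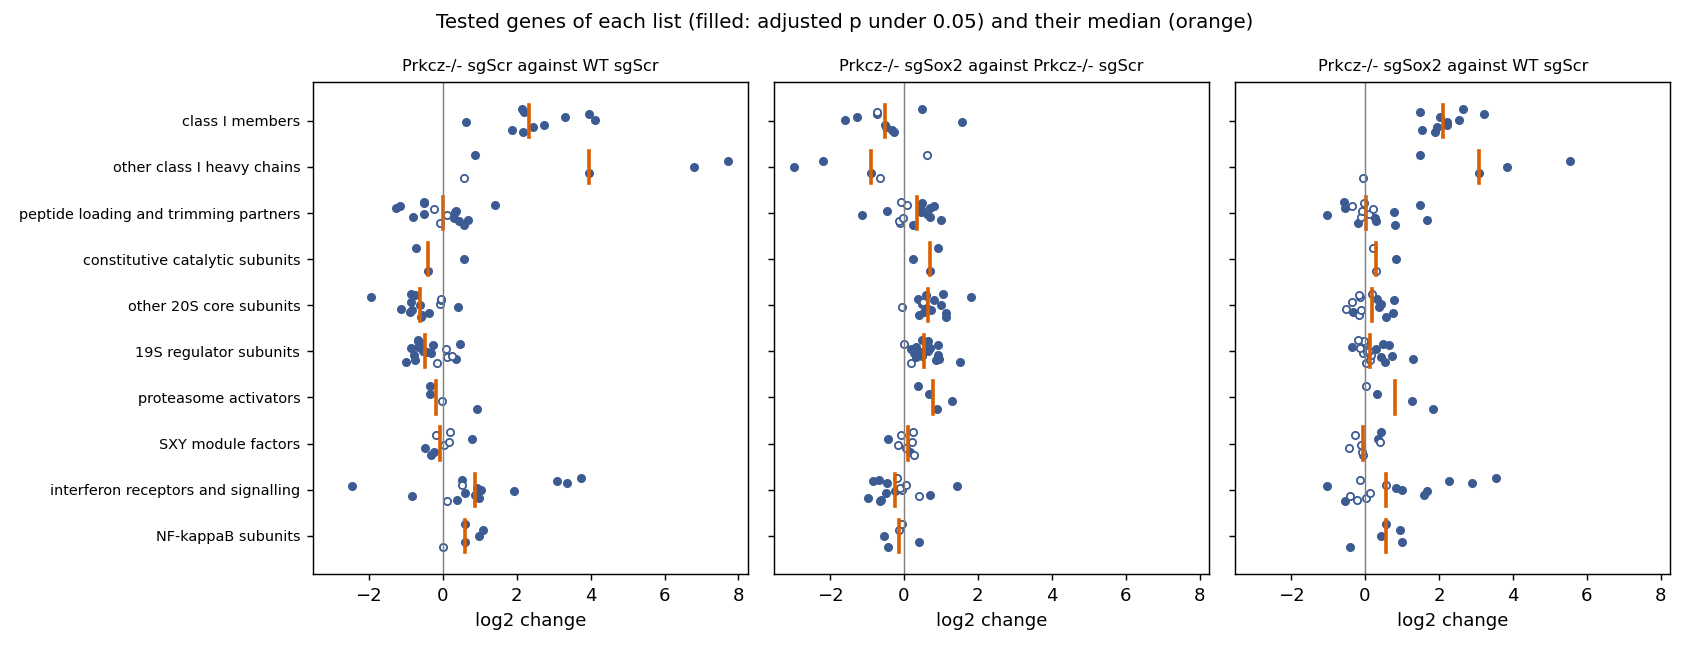
Log2 change of every tested gene of the class I members and of 9 related lists (points; filled, adjusted p under 0.05) with the list's median (orange bar) in the 3 comparisons. Members lie right of 0 against WT sgScr. 20S core and 19S subunits lie mostly left of 0 in Prkcz-/- sgScr against WT sgScr. They lie mostly right of 0 in Prkcz-/- sgSox2 against Prkcz-/- sgScr. Among the other heavy chains, H2-Q6 and H2-Q7 passed the filter only through the Prkcz-/- groups, so that list's median is not read as a result. H2-M3 lies at -0.05 in Prkcz-/- sgSox2 against WT sgScr. The value of H2-Q6 (0 reads in WT sgScr) is a fitted one.

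Regulators of class I genes were read from lists of interferon signalling, NF-kappaB and SXY factors. Of 15 interferon receptors and signalling genes, 11 were higher and 2 lower in knockout-labelled than in WT-labelled libraries (median log2 change 0.88, beside 0.12 over all tested genes, of which 37.6% were higher and 29.4% lower). In Sox2-guide against knockout-labelled libraries 2 were higher and 8 lower (median -0.25, beside -0.01 over all tested genes, of which 30.5% were higher and 30.2% lower). Stat2, a signal transducer of type I interferons, had 1104 ± 69.0 normalised reads in Sox2-guide, 1955 ± 89.6 in knockout-labelled and 227 ± 15.7 in WT-labelled libraries (SD, n = 4). Irf1, a transcription factor induced by interferons, was instead highest in Sox2-guide cells, at 2182 ± 369 in Sox2-guide, 1345 ± 266 in knockout-labelled and 719.6 ± 10.12 in WT-labelled libraries (Sox2-guide against knockout-labelled, log2 change 0.71, limma adjusted p = 2.3e-04). Socs1, an inhibitor of this signalling, averaged 63.2, 19.6 and 111 in Sox2-guide, knockout-labelled and WT-labelled libraries.

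NF-kappaB subunits were higher in knockout-labelled than in WT-labelled libraries in 4 of 5 cases (median log2 change 0.61), where 37.6% of all tested genes were higher, with Rela at 1237 ± 231 in Sox2-guide, 1349.7 ± 115 in knockout-labelled and 637 ± 60.3 in WT-labelled libraries. Of the 8 factors that bind the SXY module, 1 was higher and 3 were lower in the same comparison. Over all tested genes, 37.6% were higher and 29.4% lower. The median log2 change was -0.07 over these factors, beside 0.12 over all tested genes. Rfx5, the subunit that binds the X box, had 339 ± 21.4 in Sox2-guide, 454 ± 7.11 in knockout-labelled and 264 ± 27.2 in WT-labelled libraries. It was the only one of the 8 called higher in knockout-labelled against WT-labelled libraries. Of the ligands of natural killer cells and T cell checkpoints, Cd274 (PD-L1) averaged 45.2, 63.6 and 23.2 in Sox2-guide, knockout-labelled and WT-labelled libraries, with the knockout-labelled against WT-labelled difference called (log2 change 1.44 ± 0.42, limma adjusted p = 0.0063). Raet1e, a ligand of the receptor NKG2D, was lower in both Prkcz-/- groups, at 21.2 in Sox2-guide and 26.1 in knockout-labelled, against 166 in WT-labelled libraries.

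Markers of other cells were given beside these results. The summed level of 14 immune cell markers, 8 of them in the table, was 37.5 to 65.4 normalised reads in Sox2-guide, 50.1 to 90.6 in knockout-labelled and 29.6 to 43.3 in WT-labelled libraries. The defining markers Ptprc and Adgre1 had 0 reads in Sox2-guide and knockout-labelled libraries, and in WT-labelled libraries Ptprc had 2 reads and Adgre1 had 0. The macrophage marker Csf1r averaged 7.04 in Sox2-guide, 34.3 in knockout-labelled and 3.27 in WT-labelled libraries. It passed the minimum mean of 10 only through the knockout-labelled libraries, where it is high, so its test is not given. Lyz2 averaged 1.55, 12.3 and 0, and Cd68 averaged 35.9, 9.54 and 25.4, in Sox2-guide, knockout-labelled and WT-labelled libraries. Endothelial markers summed to 88.4 to 114, 19.4 to 26.2 and 23.9 to 42.7, and epithelial markers to 0 to 9.61, 0 to 6.26 and 36.1 to 59.1, in Sox2-guide, knockout-labelled and WT-labelled libraries. Kdr alone averaged 96.9 in Sox2-guide libraries and makes up nearly all of that endothelial sum, while Cdh5 and Tek had 0 reads there. Fibroblast markers summed to 52345 to 58728 in Sox2-guide, 100494 to 102641 in knockout-labelled and 43414 to 47141 in WT-labelled libraries. Malat1, a nuclear RNA, took 0.321% to 0.610% of reads in Sox2-guide, 1.36% to 1.502% in knockout-labelled and 0.422% to 0.549% in WT-labelled libraries. The part of these differences in the class I results was not tested.

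The genes whose level over the 12 libraries was most like the members' mean profile were ranked by Pearson correlation of log2 values among 10123 candidates, as a description of libraries that share 3 groups. Among the highest were Gbp2 (r = 0.997), Wdr81 and Zfp365 (both 0.995), Hoxc13 (0.994), Cbx7 (0.993), and Bend5 and Tbx20 (both 0.992). Gbp2, an interferon-induced GTPase, had 703 ± 60.3 normalised reads in Sox2-guide, 763 ± 57.7 in knockout-labelled and 109 ± 10.7 in WT-labelled libraries. Hoxc13, Cbx7 and Bend5 had 0 reads in WT-labelled libraries, so a profile of this kind describes any gene low in that group and high in both others.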

How the data were processed

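Transcript levels were measured by 3' tag sequencing (QuantSeq) in 12 libraries. The values deposited by the authors are a signal per gene scaled for depth, with a sum of 10000000 in every column. The submitters' processing notes name GRCm38. The aligner, the counter and the use of molecular identifiers and strand were not given in the sources used here. Values were whole multiples of 1 step per library, so reads were recovered as whole numbers (within 0.01 read) for 100% of values. Of 23106 genes, 23002 were matched by identifier to GENCODE vM21 symbols, and 104 were not.

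Genes with a mean of at least 10 (12676) were fitted as log2(value + 1) in limma 3.58.1 (trend option, R 4.3.3), with group means over all 12 libraries and Benjamini-Hochberg adjustment over all tested genes, called at an adjusted p under 0.05. Log2 changes are on that scale and understate changes of low genes. Ratios had exact two-sided permutation tests over 70 assignments. The fit was tested on simulated reads with known changes. Alternatives were pseudocounts of 0.5 and 5, other filters, quantile and TMM scaling, scaling without mitochondrial genes, edgeR 4.0.16 and DESeq2 1.42.0 on recovered reads, only the groups compared, a replicate block and each library left out.

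The members, lists and tests were chosen with earlier results of these data known. The rule for naming genes covered all members, the partners in ratios and the 8 genes most like the members' profile. For other lists it allowed up to 4 called genes per list and comparison (the 2 smallest adjusted p each way) and all genes of lists of at most 5. Only some of the genes it allowed from other lists are named, and the choice among them followed no fixed rule. H2-Q4, H2-T22, H2-M3, H2-Aa, Calr and the markers Lum, Ptprc, Adgre1, Lyz2, Cdh5 and Tek were added after their values were seen. A gene that the rule names is not reported here.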

Additional observations from a re-analysis of the deposited data

Results flagged for a closer look

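The 10 members and their ratio values were screened in 45 sets of 4 replicates for a library far from the other 3 (Dixon's ratio above its 95% critical value); chance flags about 1 in 20 such sets, and 2 were found. Psmb8 had 383 normalised reads in Sox2-guide replicate 1, while the other Sox2-guide libraries had 207, 202 and 195. This is the library that stood apart from its group over all genes. Nlrc5 had 294 normalised reads in knockout-labelled replicate 4, while the others of that group had 252, 257 and 257.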

How the results depend on the processing

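Counts of genes and members called stayed within 1.5 times the reported ones under every alternative run. With 1 library left out, 8055 to 9000 genes and 10 members were called in knockout-labelled against WT-labelled libraries, 7070 to 7824 genes and 6 to 9 members in Sox2-guide against knockout-labelled, and 5971 to 6733 genes and 9 to 10 members in Sox2-guide against WT-labelled libraries. The log2 change of B2m in Sox2-guide against knockout-labelled libraries reversed to 0.28 under quantile scaling. Without a filter the calls of B2m (adjusted p = 0.066), H2-D1 (0.052) and Nlrc5 (0.054) in that comparison and of Tap2 in Sox2-guide against WT-labelled libraries (0.052) were lost; with only the compared groups in the fit, those of B2m (0.12), H2-D1 (0.084) and Tap2 (0.069); in edgeR, that of Tap2 (0.054). The cause was not tested. Of calls in Sox2-guide against WT-labelled libraries, 57.8% were higher as reported and 47.8% with DESeq2. Same-numbered replicates deviated together little (correlations of -0.04 to 0.13, 1 of 12 over 0.1). This cannot show whether equal numbers stand for a shared batch or culture, which the labels do not give. With the replicate block 8508, 7693 and 6627 genes were called in the 3 comparisons. In Sox2-guide against knockout-labelled libraries 8 of 10 members were called with it, and Nlrc5 lost its call there (limma adjusted p = 0.061). In the paired form the ratios could not reach an exact permutation p below 0.125. Depth limits Tap2 and Psmb9 most, at 9 and 15 reads over the WT-labelled libraries.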
